A study of Mus musculus with 14 samples.

Results

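H2A.Z regions that carried a peak in every library of the study and spanned less than 3 kb are described here for the mouse small intestinal epithelium. They were chosen by joining all overlapping or touching peaks of the 8 H2A.Z lists on chromosomes 1 to 19 into union regions and keeping those with at least 1 peak in each list and a union width under 3000 bp. This rule found 3751 regions, called members below, which are 8.50% of the 44109 autosomal regions (95% Wilson interval 8.25 to 8.77, counting error only). All chromosomes together held 45028 regions. Presence in the lists and width chose the members, so these values, and the fold enrichment, p and pileup from the same peak calling, are given as a description with no test.

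H2A.Z is a variant of the core histone H2A that replaces it in nucleosomes at many promoters and enhancers. In mammalian cells it typically sits in the nucleosomes that flank the open stretch of active or poised promoters, where the SRCAP and p400 remodelling complexes place it. It is found both in dividing progenitors and in differentiated cells. Whether the members lie at promoters was not examined, since the gene tables at hand use another genome build (GRCm38) than the peaks (mm9).

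The study used chromatin immunoprecipitation followed by sequencing in 4 groups with 2 H2A.Z libraries each. The groups were EpCAM+ epithelial cells of E12.5 embryos, the same cells of E14.5 embryos, Lgr5-EGFP-high intestinal stem cells (ISC) of adults, and adult enterocytes. All mice were of a mixed C57BL/6 CD1 strain. The adult cells came from males of the Lgr5EGFP-Cre-ERT line at P60, in which the Lgr5 locus drives the green reporter that marks the stem cells. Dead cells and cells with the endothelial or leukocyte markers CD31 and CD45 were gated out. The gate listed for enterocytes, EpCAM+ and negative for CD31 and CD45, is that of epithelium in general and does not by itself separate enterocytes from other epithelial cells. About 250000 sorted cells, fixed with 1% PFA, went into a sample, per the labels. The series text speaks of biological duplicates without saying whether these were separate animals or pools, so p-values measure only the spread between these libraries. Marker genes of the labelled cell types were not examined, because genes could not be placed on the build of the peaks.

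The libraries held 27835048 to 41274126 tags and the lists 6136 to 32131 peaks. A pair of libraries stood apart, enterocyte replicate 1 and E14.5 replicate 2. The caller estimated a fragment size of 67 bp and 71 bp for them, against 191 to 247 bp in the other 6 libraries. Tags were 68 bp long and the chromatin was sonicated to about 350 to 700 bp, per the labels, so these 2 estimates lie at the tag length and do not give the length of the fragments. The other 6 estimates lie below the sonication range too. Enterocyte replicate 1 and E14.5 replicate 2 are called the low-estimate libraries. Their lists were also the shortest, with 14256 and 6136 peaks. Some results are given with and without them. Counts between pairs of stages, stage means, positions about the middle of regions and named members are given only with them.

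The shortest list decided most of the membership. A further 5577 regions had a peak in 7 of the 8 lists, and in 4930 of them the missing list was that of E14.5 replicate 2. Enterocyte replicate 1 was the missing one in 611. The other libraries accounted for at most 15 each. Without E14.5 replicate 2 the rule found 8370 regions, and without both low-estimate libraries it found 10639. When every list was shortened to its 6136 lowest p-values it found 1197, and 954 with peaks of a −log10 q of at least 2. The members are therefore the part of the H2A.Z landscape that also entered the weakest list.

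Members made up 70.5% of the autosomal peaks of E14.5 replicate 2 and 32.7% of those of enterocyte replicate 1. In the other 6 libraries the share was 11.97 to 22.3%. By covered sequence the shares were 73.8% in E14.5 replicate 2, 40.3% in enterocyte replicate 1 and 18.9 to 30.8% elsewhere. Most of the weakest list thus lay in members. The rule asks every library for a peak in each member, so a shorter list must show a higher share of peaks. The shares by peak count therefore follow largely from list length, and those by sequence rest on the same peaks. Neither is a result about members.

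Union widths ran from 560 to 2997 bp with a median of 1719 bp and quartiles of 1416.5 and 2074.5 bp. A union of peaks from all lists is at least as wide as its widest peak, so width follows partly from the number of lists. Few members were short, since 161 (4.29%) spanned 1 kb or less, and 1089 (29.0%) spanned 2 kb or more. Together they took in 6.60 Mb. The narrowest member lay on chromosome 2 at 126822172 to 126822731 and was 560 bp wide. Its peaks covered 410 and 284 bp at E12.5, 386 and 143 bp at E14.5, 560 and 501 bp in ISC, and 302 and 449 bp in enterocytes. Next came a pair on chromosome 11, at 75813392 to 75813953 and at 100573264 to 100573837, with 562 and 574 bp.

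At the other end of the range, 3 members of 2997, 2995 and 2995 bp lay just inside the limit (chromosome 3, 60804707 to 60807703; chromosome 4, 12014171 to 12017165; chromosome 17, 5491030 to 5494024). The first was covered over 2904 and 2934 bp in ISC and over no more than 1607 bp in any other library. The second was split in pieces in E12.5 replicate 1 and enterocyte replicate 2. The nearest regions outside the limit measured 3003, 3005 and 3005 bp, starting at 19944279 of chromosome 7, at 153274335 of chromosome 1 and at 12574557 of chromosome 19. Their mean standing, a percentile of fold enrichment explained below, was 32.9, 38.5 and 57.9, and that of the 3 members just inside was 44.1, 67.0 and 57.5. All 230 regions of 3 kb or more had a median width of 3440.5 bp.

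Within the members, the libraries differed in how much of a region they marked. The median covered length, the number of bases under peaks of a library in a member, was 1284 and 1173 bp at E12.5. At E14.5 it was 1109 and 288 bp. In ISC it came to 1464 and 1538 bp, and in enterocytes to 718 and 1302 bp. Coverage was thus highest in both ISC libraries and lowest in the low-estimate libraries. The ISC libraries also had the largest fragment size estimates, 247 and 228 bp. The estimates were 216 and 204 bp at E12.5, 191 bp in E14.5 replicate 1 and 196 bp in enterocyte replicate 2. The part of these estimates in the covered length, also between adult and embryonic libraries, was not tested. As a share of the union width the medians were 88.9 and 92.7% in ISC and 42.9 and 78.9% in enterocytes, against 79.2 and 71.4% at E12.5, with 66.4 and 17.0% at E14.5.

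**Figure D1:**
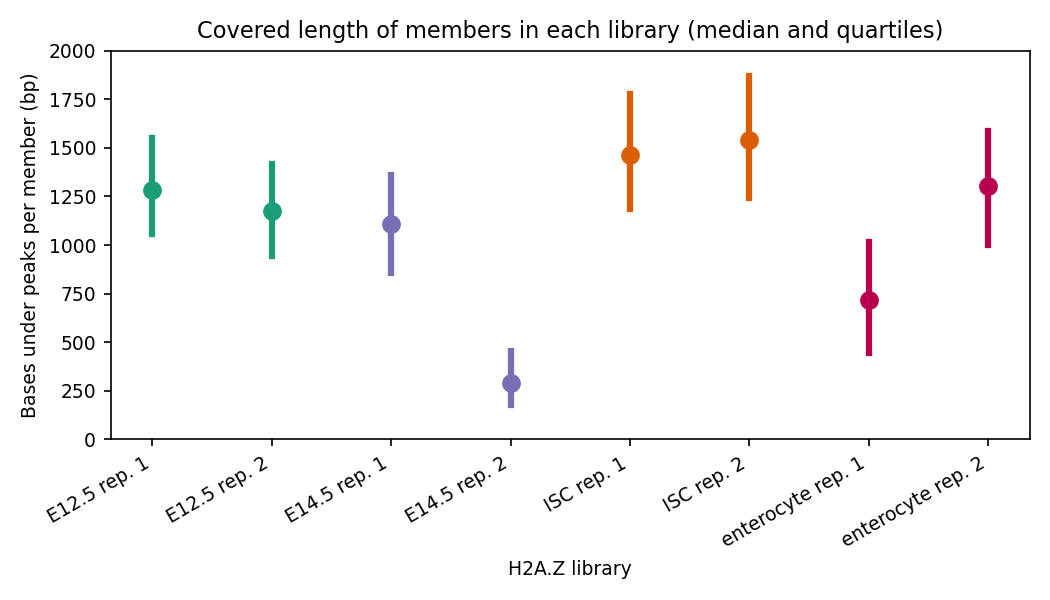
Covered length of the 3751 members in each H2A.Z library. The y axis is the number of bases under peaks per member in bp, the points are medians and the bars run from the lower to the upper quartile. E14.5 replicate 2 with a median of 288 bp and enterocyte replicate 1 with 718 bp lie below the other libraries, at 1109 to 1538 bp.

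Covered length comes from the same peak intervals that chose the members, so adult and embryonic libraries are set side by side with no test. The mean of the library medians was 1255.5 ± 372 bp in the adult and 963.5 ± 456 bp in the embryonic libraries (SD, n = 4 each), a difference of 292 bp. The covered share averaged 75.8 ± 22.7% in adult and 58.5 ± 28.1% in embryonic libraries (SD, n = 4 each), a difference of 17.3 points. The groups overlapped, since enterocyte replicate 1 lay below 3 of the embryonic libraries. Both differences changed in size when single libraries were left out. Without E14.5 replicate 2 they were 84.2 bp and 5.40 points, without enterocyte replicate 1 they were 434 bp and 26.6 points, and without both they were 238 bp and 15.6 points over 10639 regions.

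By stage, the covered length averaged 1228.5 ± 78.5 bp (E12.5), 698.5 ± 581 bp (E14.5), 1501 ± 52.3 bp in ISC and 1010 ± 413 bp in enterocytes (SD, n = 2 each). The replicates of E12.5 and of ISC were close, and those of E14.5 and enterocytes were far apart. These values carry no test either.

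The libraries differed in how their peaks lay about the middle of the union region, which is itself built from these peaks. The median absolute distance from the middle of a library's peaks to it was 36 to 94.5 bp in the 6 libraries other than the low-estimate ones, 127 bp in the first enterocyte library and 216 bp in E14.5 replicate 2. At the middle of the union region, a peak was present in 99.1 and 99.4% of members in ISC and in 63.8 and 96.3% in enterocytes. The figures were 96.7 and 94.9% at E12.5, with 93.3 and 32.3% at E14.5. At 1000 bp to the left of the middle, 17.3 and 20.7% of members were still covered in ISC and 3.55 and 11.5% in enterocytes. At E12.5 these shares were 10.1 and 8.29%, while E14.5 had 6.61 and 0.960%.

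**Figure D2:**
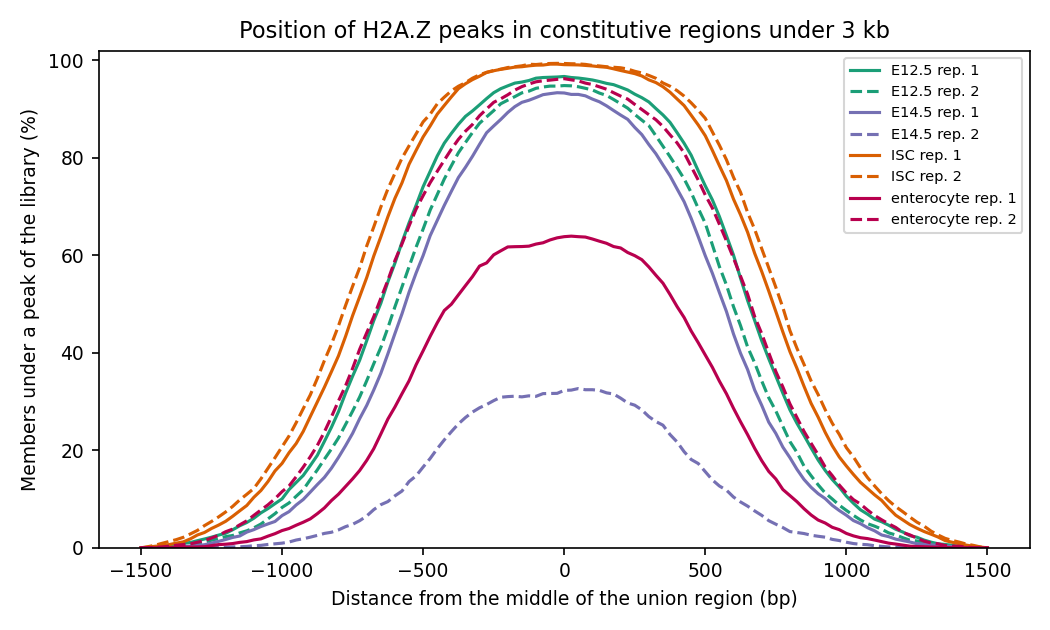
Share of the 3751 members that lay under a peak of each library, by distance from the middle of the union region. The x axis is in bp, the y axis in percent, solid lines are replicate 1 and dashed lines replicate 2. ISC lines are the widest, at 99.1 and 99.4% in the middle, and E14.5 replicate 2 stays at 32.3% there.

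Although all 8 libraries had a peak in each member, these peaks did not always meet. In 3502 members (93.4%, Wilson 92.5 to 94.1) at least 1 base lay under peaks of all libraries. This common stretch, called the core, had a median of 231.5 bp and quartiles of 137 and 371 bp, or 13.9% of the union width. In 241 members at most 7 libraries met at a base, and in 8 members at most 6. The core lay in 1 piece in 3136 members and in several in 366. Among the 6 libraries other than the low-estimate ones, 3747 members had a common stretch, with a median of 948 bp. The core of all 8 libraries is thus much shorter than that of these 6.

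The 3 longest cores lay on chromosomes 5, 14 and 5. The longest measured 1298 bp, from 38429695 to 38430992 on chromosome 5, within a member of 1870 bp. Its peaks covered 1861 and 1741 bp at E12.5, 1627 and 1379 bp at E14.5, 1785 and 1828 bp in ISC, and 1298 and 1613 bp in enterocytes. Even the library with the least coverage marked most of this member. The others measured 1219 bp, in the member at 102006638 to 102008780 on chromosome 14, and 1191 bp, in the one at 64550366 to 64552979 on chromosome 5.

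Cores of 1 base were found in members on chromosome 10 at 7386825 to 7388033, chromosome 14 at 52603832 to 52605830 and chromosome 17 at 24061200 to 24062877. In the member on chromosome 10 at 20442797 to 20445199, at most 5 libraries met. The ISC peaks there covered 2240 and 2403 bp of its 2403 bp. Those of the other 6 libraries covered 78 to 457 bp. Such a member is held together by the long ISC peaks.

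**Figure D3:**
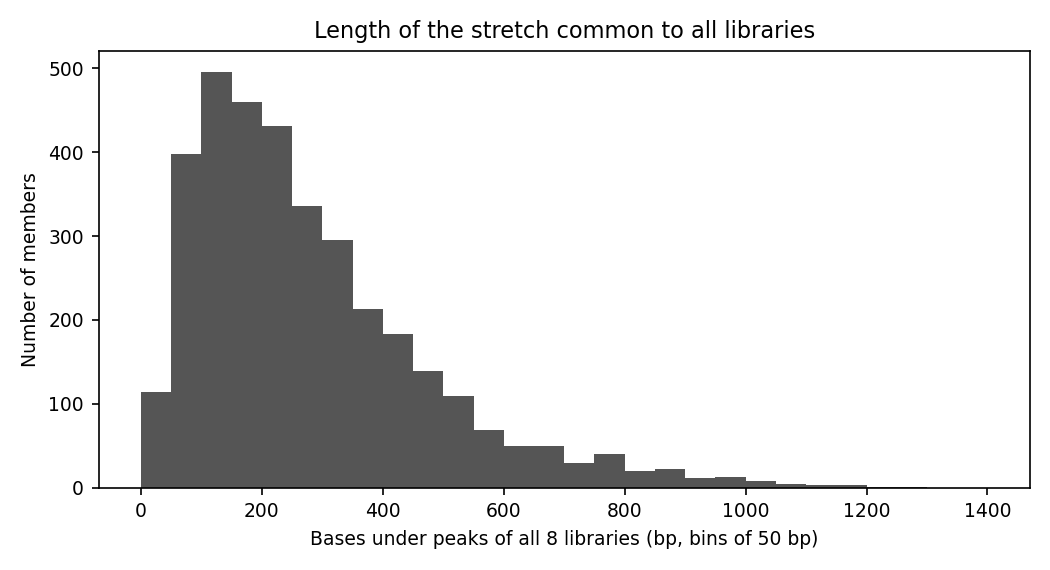
Length of the stretch under peaks of all 8 libraries in the 3502 members that had one. The x axis is in bp with bins of 50 bp and the y axis counts members. The distribution has its median at 231.5 bp and reaches 1298 bp.

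In most libraries a member was a single peak. More than 1 peak was called in 2 and 5 of the 3751 members in ISC and in 841 and 22 in enterocytes, against 13 and 12 at E12.5, with 15 and 469 at E14.5. That is 22.4% in enterocyte replicate 1 and 12.503% in E14.5 replicate 2, and 0.0533 to 0.587% elsewhere. The adult mean was 5.80 ± 11.1% and the embryonic mean 3.39 ± 6.07% (SD, n = 4 each), with no test, since the splits come from the intervals that chose the members. Without enterocyte replicate 1 the difference of 2.41 percentage points was −2.88, and without both low-estimate libraries it was −0.235.

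In every list the smallest gap between neighbouring peaks was 4.00 to 4.01 times the fragment size estimated for the library, 269 and 285 bp in the low-estimate libraries and 765 to 989 bp in the others. Shorter gaps were not listed. Counting only gaps of at least 989 bp, which any list could show, 15 members (0.400%) were split in enterocyte replicate 1 and 17 (0.453%) in E14.5 replicate 2, and 2 to 8 in the others.

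The gaps in the low-estimate libraries had a median length of 388 bp in the enterocyte library and 445 bp in that of E14.5, and their middles lay a median of 147 and 130.5 bp from the middle of the union region, with upper quartiles of 269 and 254.5 bp. A gap between peaks lies inside its region by construction, so these distances are a description only. In ISC replicate 2 a continuous peak ran across 853 of the 865 gaps of enterocyte replicate 1 and 475 of the 477 gaps of E14.5 replicate 2. A gap inside a union region must lie under peaks of other libraries, and ISC replicate 2 had the highest median coverage. These counts therefore follow largely from how the regions were joined. Split members were wider, with a median of 1972 bp against 1639 bp for unsplit ones in enterocyte replicate 1, and 1931 against 1678.5 bp in E14.5 replicate 2. A split member must hold more than 1 peak and the gap between them, so its greater width follows partly from the split itself.

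Both libraries split the same 157 members, which are 18.7% of those split in enterocyte replicate 1 and 33.5% of those split in E14.5 replicate 2. In 152 of the 157 a gap of one library overlapped a gap of the other. The middles of the gaps lay a median of 59.5 bp apart. This overlap was not tested.

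The enrichment of members was compared within each list. For each region the strongest peak of a library was taken, and the fold enrichment is the authors' ratio to the local background. The median fold of members was 4.88 and 4.03 at E12.5, 3.51 and 3.69 at E14.5, 4.77 and 4.78 in ISC and 4.48 and 4.71 in enterocytes. These values describe peaks of single lists and are not changes between libraries. In 7 libraries members ranked above the other regions of their list, with a median list rank of 67.0 to 87.8 (100 is the highest fold) against 42.3 to 49.4. The other regions include those found in a single list, whereas the rule asks for members in every list. The higher rank therefore follows partly from the rule and is no result about members. In E14.5 replicate 2 members ranked lower by fold, with 48.0 against 61.7 for other regions, and higher by p, with 54.7 against 46.5, and by pileup, with 58.9 against 36.2. The strength of a member was almost unrelated to its width, with Spearman's rho of −0.0282 to 0.112 between fold and union width over the 3751 members of a library, given as a description.

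To compare the order of members between libraries, the fold of the strongest peak was turned into a standing. The standing is the percentile of a region within its own library among the 3981 autosomal regions with a peak in all 8 lists, members and regions of 3 kb or more together. It shows a place in the order and cannot show a gain or loss shared by all regions. The order of members was most alike in the ISC libraries, with a Spearman's rho of 0.836 over 3751 members. It was 0.637 between the enterocyte libraries, 0.415 between those of E12.5 and 0.222 between those of E14.5. The ISC libraries share an input, and so do the enterocyte libraries, whereas each embryonic library has its own. The part of a shared input in these correlations was not tested.

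Between ISC and enterocytes the rho was 0.210 to 0.441, between E12.5 and E14.5 it was −0.0185 to 0.347, and between adult and embryonic libraries −0.0607 to 0.292. E14.5 replicate 1 was more like E12.5 replicate 2 (0.347), E12.5 replicate 1 (0.267) and ISC replicate 2 (0.234) than like its own replicate (0.222). With the other adult libraries its rho was 0.117 to 0.188. E14.5 replicate 2 had a rho of −0.0607 to 0.222 with the other libraries. Among the 6 libraries other than the low-estimate ones, the rho was 0.415 and 0.836 within stages, 0.352 and 0.441 between ISC and enterocytes, 0.267 and 0.347 between E12.5 and E14.5, and 0.150 to 0.292 between adult and embryonic libraries.

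Covered length and fold ordered the pairs differently. Between replicates the rho of covered length was below that of fold in ISC (0.782 against 0.836), enterocytes (0.610 against 0.637) and E14.5 (0.207 against 0.222), and above it for E12.5 (0.803 against 0.415). The rho of covered length among the 6 libraries other than the low-estimate ones was 0.782 and 0.803 within stages, 0.682 and 0.716 between ISC and enterocytes, 0.735 and 0.766 between E12.5 and E14.5, and 0.570 to 0.630 between adult and embryonic libraries. For pileup these values were 0.719 and 0.805, 0.622 and 0.676, 0.632 and 0.683, and 0.396 to 0.543. All libraries share the underlying sequence of a region, and its part in these correlations was not tested. In each of these measures the single lowest value among the 6 lay between adult and embryonic libraries.

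**Figure D4:**
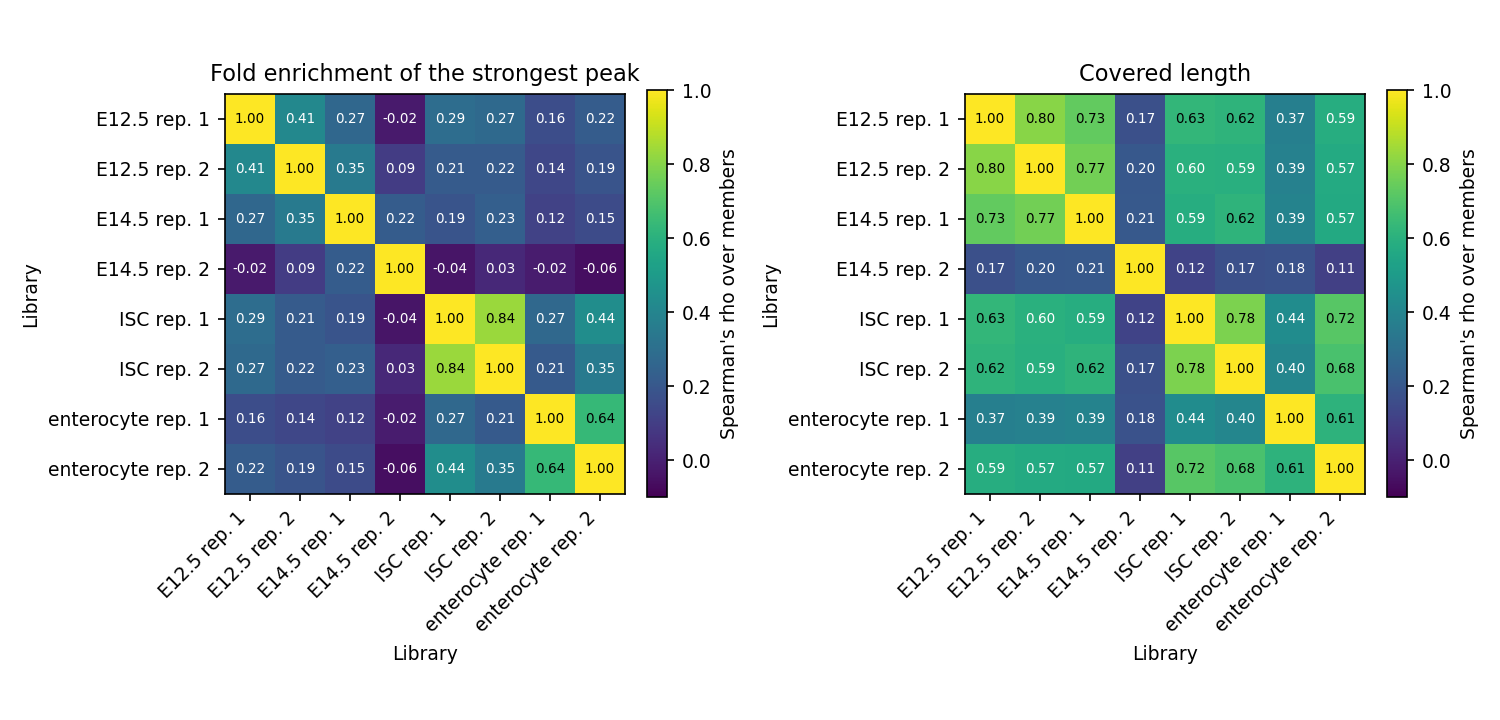
Spearman's rho between each pair of H2A.Z libraries over the 3751 members, for the fold enrichment of the strongest peak on the left and the covered length on the right. Colours run from −0.1 to 1. The ISC pair has the highest rho of fold, 0.836, and the lowest value of each panel, −0.0607 and 0.107, belongs to E14.5 replicate 2 with enterocyte replicate 2.

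A member rarely kept its place in all libraries. The range of the 8 standings of a member had a median of 68.9 points, and 58.4 points over the 6 libraries other than the low-estimate ones. Within a stage, the replicates differed by a median of 9.29 points in ISC, 15.2 in enterocytes, 20.0 at E12.5 and 24.3 at E14.5. A standing above 90 was reached in no library by 2046 members (54.5%), in 1 library by 899, in 4 by 96 and in 7 by 1 member. None reached it in all 8.

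That single member, on chromosome 2 at 105743845 to 105745564, also had the highest mean standing, 95.7. Its standing was 98.8 and 99.9 at E12.5, 82.8 and 98.8 at E14.5, 97.5 and 97.4 in ISC and 92.4 and 97.7 in enterocytes, with a fold of 4.12 to 7.28. A second on chromosome 12 at 13255350 to 13257325 had a mean of 92.6, with 97.1 and 98.5 at E12.5, 99.3 and 98.7 at E14.5, 82.2 and 91.7 in ISC and 92.3 and 80.9 in enterocytes. The first was high throughout and the second highest in the embryonic libraries. Next were chromosome 19 at 34995750 to 34997627 with a mean of 90.9, chromosome 6 at 147423822 to 147425600 with 90.9 and chromosome 2 at 119487659 to 119489996 with 90.5. The member with the third smallest range over the 8 libraries lay on chromosome 13 at 113717031 to 113718778, with 79.0 to 94.6 in all libraries.

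Others stayed at the bottom. The lowest mean standing, 3.70, was that of the member on chromosome 6 at 3132566 to 3133727, with 24.0 in E12.5 replicate 1 and 0.0251 to 3.49 elsewhere. The members at 37750566 to 37751921 of chromosome 1 and at 77391063 to 77393570 of chromosome 9 had means of 5.62 and 6.61, and neither had a core common to all libraries. On chromosome 10, the member at 92738533 to 92739832 had the smallest range of all, 13.8 points, with standings of 2.01 to 15.8. These members were picked for their small range, and a percentile has least room to vary near its ends.

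Adult and embryonic libraries were then set against each other region by region. In 205 members (5.47%) all 4 adult standings lay above all 4 embryonic ones, where the percent over all 3981 regions in all lists was 5.60. The reverse held for 202 members (5.39%), with 5.40 over all regions. Members were called as often as the background, of which they form most, so the share is no result about them. The counts changed with the libraries used, and so did the number of members. They were 743 and 730 of 8370 members without E14.5 replicate 2, and 377 and 357 of 4342 without enterocyte replicate 1. If the first E12.5 library was left out they were 328 and 318 of 3765. Fewer libraries make separation easier and membership changes as well. No share over all regions is given for these settings.

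Among members higher in the adult libraries, that with the largest difference lay on chromosome 8 at 125074283 to 125075706. Its standing was 93.7 and 95.4 in ISC and 81.1 and 96.8 in enterocytes, against 2.96 and 33.0 at E12.5, with 4.40 and 8.21 at E14.5. The lowest adult value was thus far above the highest embryonic one. Its fold was 6.41 and 6.58 in ISC and 4.92 and 6.32 in enterocytes, against 3.34 and 3.74 at E12.5, with 2.70 and 3.26 at E14.5.

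Next came chromosome 7 at 25291696 to 25293295, with a mean standing of 84.4 in adult and 12.1 in embryonic libraries, and chromosome 7 at 17199303 to 17201293, with 77.0 in adult and 4.77 in embryonic ones. In this last member enterocyte replicate 1 stood at 48.3, and the other adult libraries at 81.3 to 90.0. The remaining ones were on chromosome 19 at 4169187 to 4170259, with 87.3 in adult and 15.3 in embryonic libraries, and on chromosome 6 at 29119764 to 29121580, with 90.0 in adult and 18.9 in embryonic libraries. By the rule all 5 had peaks in every embryonic library, and the difference is one of place.

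Among members higher in the embryonic libraries, the first lay on chromosome 12 at 80308825 to 80310697. It stood at 0.251 and 27.9 in ISC and 3.84 and 2.49 in enterocytes, against 59.2 and 79.8 at E12.5, with 87.6 and 94.4 at E14.5. The second, on chromosome 1 at 134929335 to 134930565, had 7.76 and 5.95 in ISC and 1.08 and 0.754 in enterocytes, against 44.9 and 84.2 at E12.5, with 81.8 and 88.3 at E14.5. In both the enterocyte libraries lay near the bottom of the order. The member on chromosome 8 at 89146997 to 89149075 was the most even, with 14.1 to 27.0 in the adult and 85.7 to 88.9 in the embryonic libraries. The other two were on chromosome 2 at 152157238 to 152158836, with a mean of 11.1 in adult and 78.0 in embryonic libraries, and on chromosome 14 at 37781213 to 37783371, with 21.2 in adult and 88.0 in embryonic ones.

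**Figure D5:**
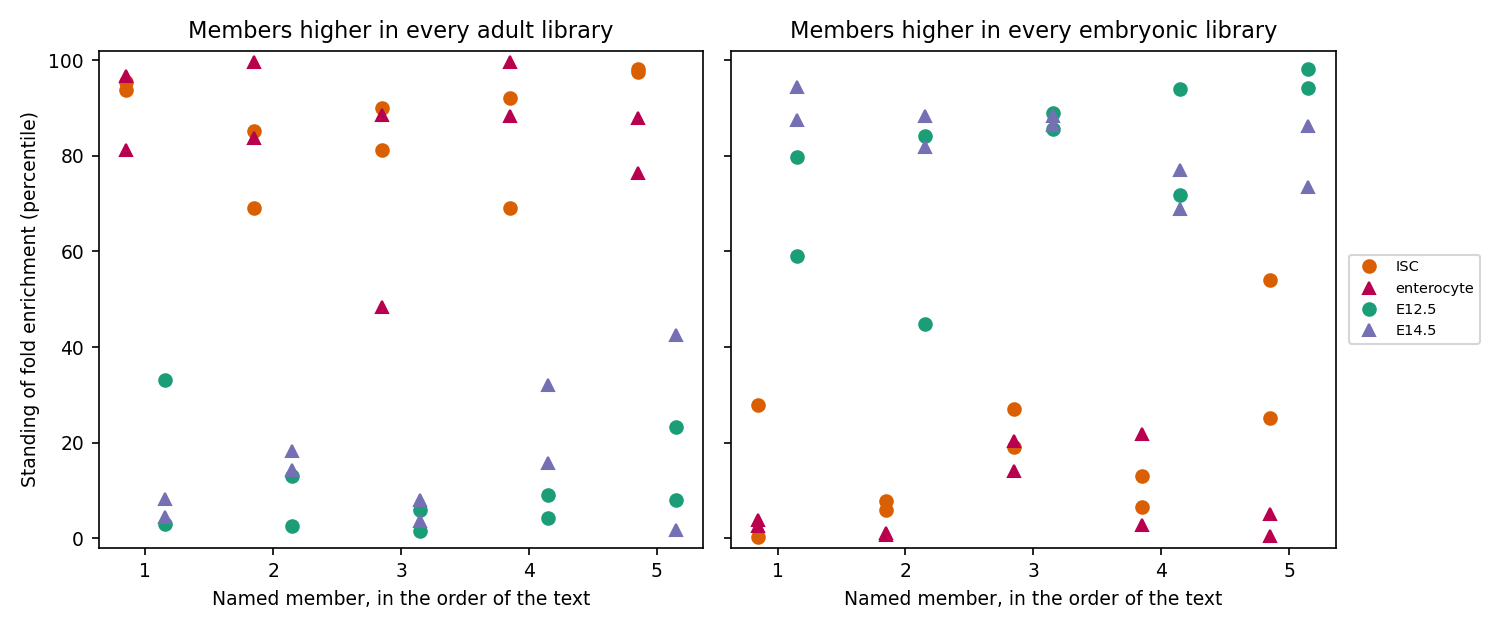
Standing of the 5 named members that were higher in every adult library (left, in text order on chromosomes 8, 7, 7, 19 and 6) and of the 5 that were higher in every embryonic library (right, on chromosomes 12, 1, 8, 2 and 14). The y axis is the percentile of fold enrichment within a library, and each point is 1 library. Adult points lie left of embryonic ones, and the groups do not overlap since the members were chosen for that.

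Extent was compared in the same way. All 4 adult libraries had a higher percentile of covered length than all embryonic ones in 127 members (3.39%, against 3.79 over all regions in all lists), and the reverse held in 243 (6.48%, against 6.23). Both shares were near the background, of which members form most, so they are no result about members. In the regions of 3 kb or more, which width set apart from members, they were 10.4 and 2.17%. Enterocytes had a higher percentile than ISC in 1207 members (32.2%, against 30.9) and a lower one in 655 (17.5%, against 19.1). ISC had a higher one than E14.5 in 649 (17.3%, against 19.1) and a lower one in 1064 (28.4%, against 26.9). E14.5 had a higher one than E12.5 in 811 (21.6%, against 21.2) and a lower one in 614 (16.4%, against 17.0). These shares too stand beside a background made mostly of members. In the regions of 3 kb or more, enterocytes had a higher percentile than ISC in 10.9% and a lower one in 45.2%. For ISC against E14.5 the shares there were 47.8 and 2.61%, and for E14.5 against E12.5 they were 14.8 and 26.5%. None of this was tested. The examples below were chosen after their values were seen.

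On chromosome 1 at 194955777 to 194958231, peaks covered 2371 and 2407 bp in ISC and 838 and 1728 bp in enterocytes, against 564 and 464 bp at E12.5, with 386 and 207 bp at E14.5. On chromosome 11 at 78638668 to 78640921 they covered 1926 and 2170 bp in ISC and 325 and 1863 bp in enterocytes, against 472 and 589 bp at E12.5, with 312 and 83 bp at E14.5. Both members were long in ISC and short in every embryonic library. In the opposite direction, the member on chromosome 15 at 26824438 to 26826768 was covered over 868 and 701 bp in ISC and 210 and 416 bp in enterocytes, against 1767 and 2302 bp at E12.5, with 1597 and 711 bp at E14.5. That on chromosome 1 at 79757304 to 79759502 had 1381 and 1405 bp in ISC and 147 and 915 bp in enterocytes, against 2178 and 1940 bp at E12.5, with 1556 and 554 bp at E14.5. Neither of these had a core common to all libraries.

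Enterocytes and the stem cells they descend from were set side by side in the same way. Both enterocyte standings lay above both ISC standings in 1183 members (31.5%, against 32.1 over all regions in all lists), and the reverse held in 1180 (31.5%, against 30.7). Groups of 2 libraries separate easily, and these shares were near the background, of which members form most. In the regions of 3 kb or more the shares were 40.9 and 18.7%, with no test. In enterocytes, the member on chromosome 15 at 102161861 to 102162756 had 96.0 and 84.3, against 8.82 and 1.31 in ISC. That on chromosome 13 at 107725846 to 107727914 had 98.9 and 97.4 in enterocytes, against 15.8 and 12.7 in ISC. Another, on chromosome 16 at 87495489 to 87497137, had 92.6 and 93.5 in enterocytes, against 17.6 and 5.43 in ISC.

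The opposite was seen on chromosome 4 at 19934577 to 19936152, with 1.91 and 0.151 in enterocytes, against 98.1 and 95.6 in ISC. This member also stood at 72.9 to 95.8 in the embryonic libraries, so enterocytes alone were low. Chromosome 2 at 142887118 to 142889474 had 4.67 and 10.9 in enterocytes, against 95.1 and 99.0 in ISC, and chromosome 19 at 41459049 to 41459989 had 7.21 and 0.502 in enterocytes, against 91.4 and 94.7 in ISC. Both enterocyte libraries were low in each of these members.

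Between the embryonic stages, both E14.5 standings lay above both E12.5 ones in 744 members (19.8%, against 20.3 over all regions in all lists) and below them in 771 (20.6%, against 20.4). ISC standings lay above those of E14.5 in 1080 members (28.8%, against 28.2) and below them in 1027 (27.4%, against 27.9). Members form most of this background, so the closeness of these shares to it is no result about them. In the 230 regions of 3 kb or more, E14.5 lay above E12.5 in 28.7% and below it in 18.3%. ISC lay above E14.5 in 18.3% of those and below it in 37.0%. These differences were not tested. At E14.5, the member on chromosome 3 at 60211763 to 60213914 had 98.6 and 93.3, against 0.879 and 5.10 at E12.5. That on chromosome 1 at 60724169 to 60726474 had 99.5 and 97.3 at E14.5, against 0.678 and 11.0 at E12.5. Another, on chromosome 18 at 16196397 to 16197454, had 93.4 and 93.8 at E14.5, against 7.13 and 2.34 at E12.5.

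Lower at E14.5 were the members on chromosome 19 at 42592463 to 42594063, with 1.26 and 4.22 at E14.5, against 91.6 and 97.0 at E12.5, and on chromosome 6 at 90554243 to 90555373, with 13.9 and 2.44 at E14.5, against 93.2 and 97.7 at E12.5. The member on chromosome 9 at 54546791 to 54548207 had 1.16 and 2.86 at E14.5, against 69.4 and 97.3 at E12.5. Its standing in the adult libraries was 81.8 to 93.3, so E14.5 was the only low stage there.

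Members were spread over all autosomes. Their share of the union regions of a chromosome was lowest on chromosome 18, with 114 of 1506 (7.57%, Wilson 6.34 to 9.02), and highest on chromosome 9, with 246 of 2429 (10.1%, Wilson 8.99 to 11.4). These intervals overlap at their ends, and neighbouring regions are not independent. Neighbouring members lay a median of 224 kb apart, with quartiles of 73.7 and 669 kb, and 107 of the 3732 distances (2.87%) were under 10 kb.

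Members stood somewhat more alone than regions with a peak in 7 lists or in a single list, but not than the wider regions found in all lists. The nearest union region of any kind was a median of 13.2 kb away from a member, against 10.1 kb for regions with a peak in 7 lists and 8.69 kb for regions of a single list, and it lay within 5 kb for 22.6% of members, against 27.6 and 34.9%. The regions of 3 kb or more in all lists had a median of 15.8 kb, and 20.9% of them had a neighbour within 5 kb. These differences were not tested, and wide regions absorb close neighbours when peaks are joined.

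In a few places members were dense. The stretch of chromosome 17 from 23683503 to 23737232 held 6 members among 7 union regions in 53.7 kb. Another 6 lay on chromosome 13 from 21531732 to 21623932, among 8 regions, and 6 on chromosome 1 from 173176734 to 173276348, among 10 regions. These were the 3 densest stretches of up to 100 kb.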

How the data were processed

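The submitters' processing notes name bcl2fastq 1.8.4, Bowtie 1.1.2, SAMtools 1.2 and mm9. Per the file headers, MACS 2.1.0.20140616 called broad peaks for each library against input, with a q cutoff of 0.05. The listed −log10 q of the deposited peaks starts at 1.00, so the lists also hold peaks whose listed q is weaker than this cutoff. The deposited pileup is a coverage signal, the deposited −log10 p and −log10 q measure evidence against input, and the deposited fold is a ratio to local background. The 6 inputs entered through this calling alone. The part of depth in which weak regions reached a list was not tested. E14.5 replicate 2 had the fewest tags and peaks, 27835048 and 6136. Enterocyte replicate 1 had 37938260 tags and 14256 peaks, and ISC replicate 1 had 31507399 tags and 26925 peaks.

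Union regions, covered lengths, cores and standings were computed from the lists with Python 3.11.15, pandas 2.3.3 and numpy 2.4.6, and the scripts were tested on simulated peaks. The planned permutation tests of 3 measures between adult and embryonic libraries are not used, because these measures come from the peak intervals that chose the members. Members, measures and the rule for naming members were chosen with earlier results of these data known. Named were the extremes of mean standing, of group differences without overlap, of range, core, width and density. Alternatives were list length, −log10 q, merging distance, width limit, ranked value, replicate block and leaving out libraries. No gene or sequence was used, because the tables at hand are of another build.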

Additional observations from a re-analysis of the deposited data

Results flagged for a closer look

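Among 10 groups of 4 libraries checked for a library far from the rest, 3 held one. No chance rate is set beside this count, since the measures come from the peak intervals that chose the members. Enterocyte replicate 1 had more than 1 peak in 22.4% of members, against 0.0533 to 0.587% in the other adult libraries. E14.5 replicate 2 did so in 12.503%, against 0.320 to 0.400% in the other embryonic ones. With gaps of at least 989 bp alone the shares were 0.400% in enterocyte replicate 1 and 0.453% in E14.5 replicate 2, against 0.0533 to 0.213% in the other 6 libraries. Members held 70.5% of the autosomal peaks of E14.5 replicate 2, against 14.8 to 22.3% in the other embryonic libraries. This share follows largely from its short list, since the rule asks for a peak in each member.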

How the results depend on the processing

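The differences in covered length and covered share kept their direction under all 14 alternatives, of which the replicate block could not change them. The difference in split members reversed to −2.63 percentage points with lists of equal length, to −0.235 without both low-estimate libraries and to −2.88 without enterocyte replicate 1. With a −log10 q of at least 2, an alternative chosen after seeing the data, 954 regions met the rule, with a median width of 1739.5 bp, 892 with a core, 49 higher in adult and 38 higher in embryonic libraries. Lists of equal length gave 1197, 1741 bp, 1153, 60 and 39. Without both low-estimate libraries these were 10639, 1595 bp, 10507, 1314 and 1289. A width limit of 2000 bp gave a median of 1552 bp. Leaving out 1 library at a time gave 3765 to 8370 members, a median width of 1637 to 1710 bp, 3511 to 8146 with a core, 237 to 743 higher in adult and 238 to 730 higher in embryonic libraries. It gave differences of 84.2 to 434 bp in covered length, 5.40 to 26.6 points in covered share and −2.88 to 5.51 points in split members. For these alternatives, the counts higher in adult or embryonic libraries have no share over all regions beside them. The causes were not tested. Replicate numbers did not pair the libraries, since their deviations correlated at −0.0710 to 0.0331. A block by replicate number limits only which permutations are allowed. It therefore cannot change the differences of 292 bp, 2.41 and 17.3 points. A −log10 q of at least 10 left no region, because enterocyte replicate 1 reaches 7.92.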
